A study of Homo sapiens with 6 samples.

Results

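The genes described here are those of the Wnt pathway, from the secreted ligands through their receptors to the nuclear factors. They were chosen by symbol from knowledge of the pathway, with earlier results of these data known. Of 37 symbols named, 36 were found among 19421 genes with values on one common scale, and NKD2 was not analysed here. RNA sequencing was performed on A431, a human squamous carcinoma cell line, in 3 samples that expressed an shRNA against ARID1A (shARID1A) and 3 that expressed a control shRNA (shCONTROL). All 6 samples were grown in DMEM with 10% FBS and all carry an shRNA. ARID1A belongs to BAF, a SWI/SNF complex that remodels chromatin, and binds DNA. The number of different hairpins, and whether replicates came from separate cultures, are not given in the sources. The p-values therefore cover the spread among these 6 samples alone, and that spread may be technical.

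Wnt proteins are secreted lipid-modified ligands that bind frizzled receptors, together with LRP5 or LRP6 in the branch that acts through beta-catenin. Without a ligand, a destruction complex built on axin and APC marks beta-catenin for degradation. With a ligand, dishevelled proteins carry the signal to that complex, beta-catenin accumulates, and with TCF/LEF factors it switches on genes that include several of the pathway's own inhibitors. In skin and other stratified epithelia the pathway is known for its part in hair follicle formation and in the renewal of basal cells.

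The reads assigned to genes numbered 31658040 to 36453744 per sample. ARID1A itself had 6.70, 7.62 and 7.31 FPKM in the shARID1A samples, against 22.8, 22.8 and 23.8 FPKM in the shCONTROL samples (FPKM divides a gene's reads by its length and by the depth of the sample). It was lower by 68.8%, with a log2 fold change of -1.55 ± 0.09 (SE; limma with Benjamini-Hochberg adjustment, adjusted p = 0.000187), and the exact permutation test gave p = 0.1, the smallest that 3 samples against 3 allow. Of 9 squamous epithelial markers, 8 averaged at least 1 FPKM over the samples, and their summed level was 1348 to 1436 FPKM in shARID1A samples and 1654 to 1703 FPKM in shCONTROL samples. Of 6 fibroblast markers only LUM and COL1A1 reached 1 FPKM, with a summed level over the list of 10.3 to 12.5 FPKM in shARID1A and 6.56 to 8.96 FPKM in shCONTROL samples, and COL1A2, COL3A1 and DCN were near 0. Endothelial markers summed to at most 0.131 FPKM in a sample. The 4 leukocyte markers measured summed to 9.06 to 15.1 FPKM in shARID1A and 11.9 to 16.0 FPKM in shCONTROL samples. Of these only CD68, a lysosomal protein gene that is not confined to leukocytes, reached 1 FPKM, and PTPRC, the marker of all leukocytes, averaged 0.0138 FPKM. The part of these marker differences in the results below was not tested. In bulk RNA, less transcript per cell and fewer cells that express a gene cannot be told apart.

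Transcripts of 2 Wnt ligands, WNT7A and WNT10B, of the receptor FZD5 and of the secreted antagonist DKK1 rose in shARID1A cells, and those of the dishevelled gene DVL2 fell. WNT7A was 2.58 times, WNT10B 2.41 times, DKK1 2.13 times and FZD5 1.51 times as high in shARID1A as in shCONTROL cells, while DVL2 was lower by 28.7%. The other tested genes of the pathway did not pass the test. Of the 36 genes, 31 had a mean level of 1 FPKM or more across the samples and entered the test. Thus 5 of 31 (16.1%) passed, against 16.8% of all 11599 genes tested, so in this fit the pathway held about the same share of called genes as the transcriptome. That comparison moved with the setting. With quantile normalization 25.8% of the pathway's genes were called, against 15.3% of all genes, and with the replicate number as a block 16.1% were called, against 23.6% of all genes. By direction, 4 of 31 (12.9%) rose, against 5.85% of all genes, and 1 of 31 (3.23%) fell, against 10.9% of all genes. The median log2 fold change was 0.056 over the 31 genes and -0.084 over all genes tested. These fold changes are differences of mean log2(FPKM + 1), shARID1A minus shCONTROL, which understate the change of genes with low levels. Among all genes 679 were called higher and 1265 lower, a split that became 947 higher and 831 lower under quantile normalization.

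**Figure D1:**
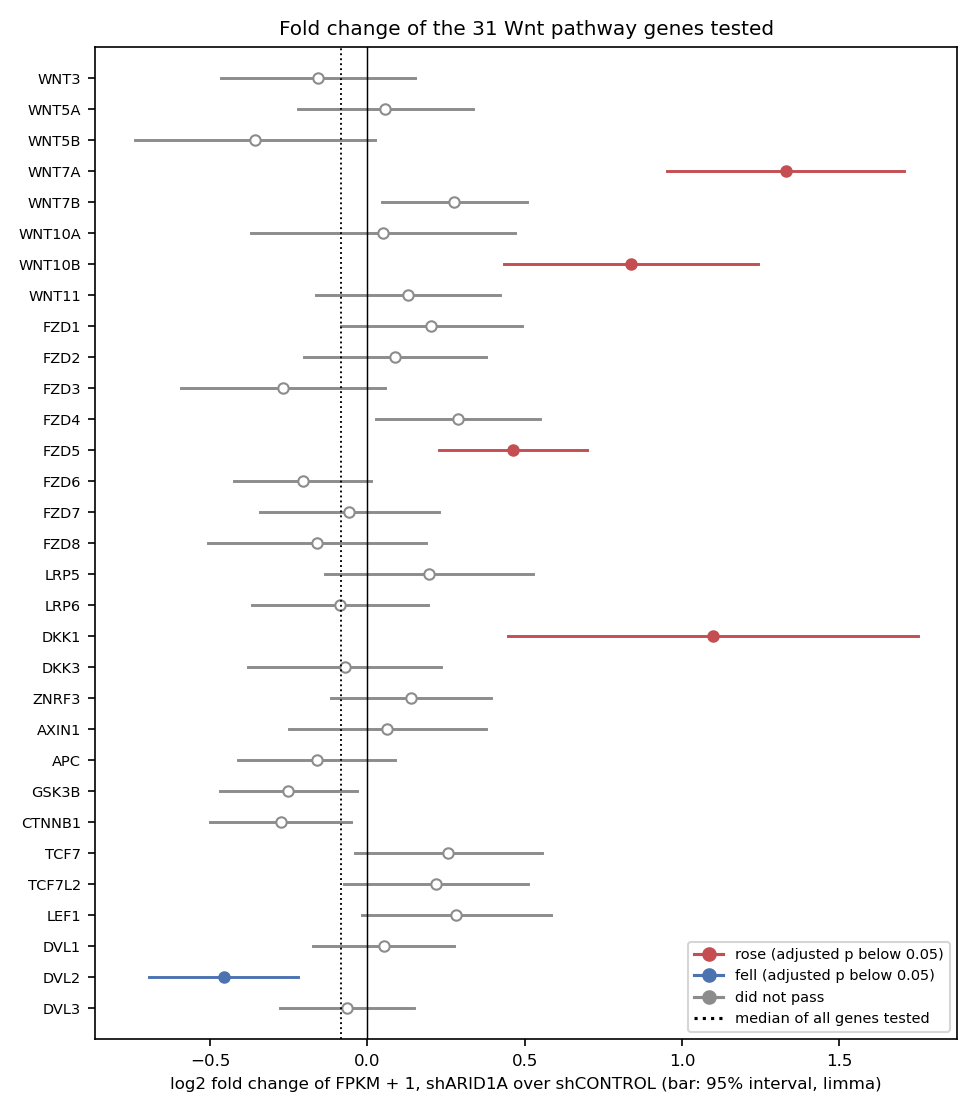
Log2 fold change of FPKM + 1, shARID1A over shCONTROL, of the 31 Wnt pathway genes tested, with bars for limma's 95% interval and a dotted line at the median of all genes tested. WNT7A, DKK1, WNT10B and FZD5 lie to the right and DVL2 to the left as called genes, and the 26 open points, from -0.36 to 0.29, did not pass.

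The pathway's genes spanned a wide range of levels. CTNNB1, which encodes beta-catenin, was the only one above 100 FPKM on average, 11 lay between 10 and 100 FPKM, 19 between 1 and 10 FPKM, and 5 below 1 FPKM. DKK1 and FZD6 stood next to CTNNB1 in the order of mean levels, and their values across samples overlapped. The 5 low genes, WNT4, RNF43, AXIN2, TCF7L1 and NKD1, were left out of the test and are described by their reads below.

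**Figure D2:**
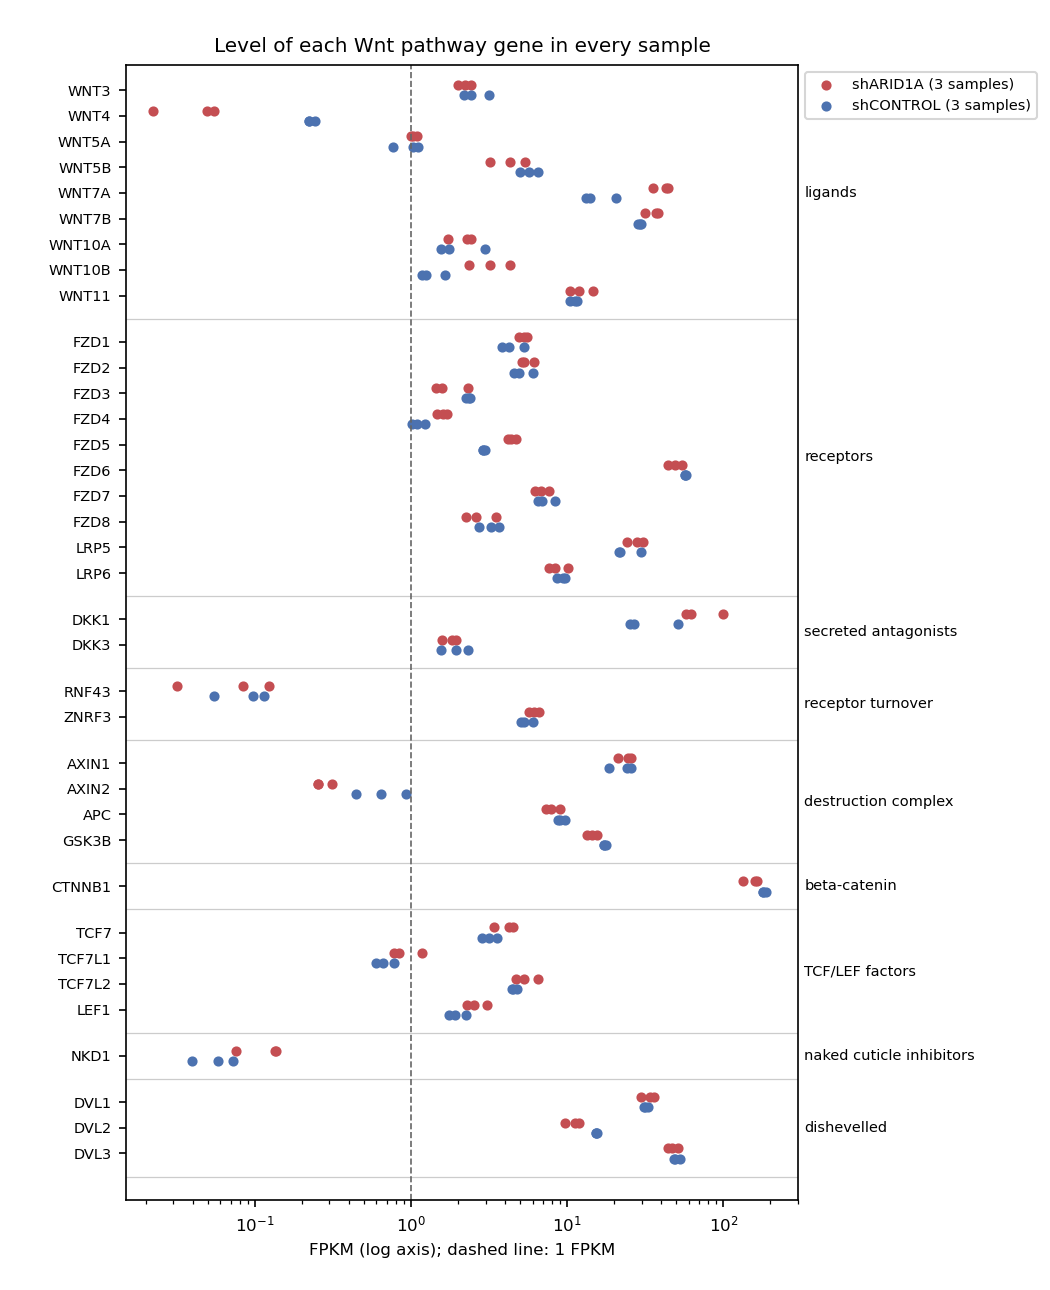
FPKM of each of the 36 genes in every sample on a log axis, grouped by role, with shARID1A samples drawn above shCONTROL samples of the same gene. The dashed line marks 1 FPKM. Points do not overlap between the groups for 14 of the 36 genes, among them the called genes WNT7A, WNT10B, FZD5, DKK1 and DVL2. Among the 31 tested genes this held for 35.5%, against 38.8% of all genes tested.

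WNT7A, a ligand known from limb and reproductive tract development, had 44.0, 43.1 and 35.5 FPKM in shARID1A cells, against 13.3, 14.0 and 20.4 FPKM in shCONTROL cells. Every shARID1A sample lay above every shCONTROL sample, and replicate 3 of each group lay nearest to the other group. The means were 40.9 ± 4.67 FPKM in shARID1A and 15.9 ± 3.91 FPKM in shCONTROL (SD, n = 3 each). The log2 fold change was 1.33 ± 0.17 (SE), with a 95% interval of 0.95 to 1.71 (limma, Benjamini-Hochberg adjusted p = 0.00237). WNT7A passed in all 16 alternative settings, with adjusted p values up to 0.0165, and it was the only gene of the 31 that did. Sample by sample, the ratio between equal replicate numbers was 3.32, 3.08 and 1.74. The stretch around its annotated start, chr3:13880022-13880321 on the minus strand of GRCh38.p14 in RefSeq, is shown because WNT7A had the largest log2 fold change among the 31 tested genes. It runs from 250 bases before the start to 50 after it, and capitals mark CpG dinucleotides.
WNT7A: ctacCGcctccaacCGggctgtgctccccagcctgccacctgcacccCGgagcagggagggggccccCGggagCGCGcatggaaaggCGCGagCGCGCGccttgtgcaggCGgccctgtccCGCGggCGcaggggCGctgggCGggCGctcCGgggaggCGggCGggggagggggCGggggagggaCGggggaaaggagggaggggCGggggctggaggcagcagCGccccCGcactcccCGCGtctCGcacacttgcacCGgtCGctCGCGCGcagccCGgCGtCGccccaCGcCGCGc
This window is 80.3% G or C and holds 40 CpG dinucleotides, more than in 87.4% of the 13417 windows of tested genes, whose median is 26. Neither the TCF/LEF motifs CTTTGAA and CTTTGAT nor the AP-1 motif TGANTCA occurs in it on either strand. Windows of DVL1 (58), LRP5 (52), AXIN1 (44) and DVL3 (43), genes that did not pass, held more CpG dinucleotides than that of WNT7A. The window of DKK1, which rose, held 20, more than in 32.8% of the windows of tested genes.

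WNT10B, a ligand known from hair follicles and as an inhibitor of fat cell formation, had 3.18, 4.28 and 2.36 FPKM in shARID1A cells, against 1.25, 1.17 and 1.66 FPKM in shCONTROL cells. The groups did not overlap, and replicate 3 was again lowest in shARID1A and highest in shCONTROL. The means were 3.28 ± 0.960 FPKM in shARID1A and 1.36 ± 0.259 FPKM in shCONTROL (SD, n = 3 each), and the log2 fold change was 0.84 ± 0.18 (SE; limma, Benjamini-Hochberg adjusted p = 0.0169). The call was lost without shARID1A replicate 1, with an adjusted p of 0.0599, without shCONTROL replicate 1 (0.0649) and without shCONTROL replicate 2 (0.0760).

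The remaining 6 tested ligands did not pass. WNT7B, a close relative of WNT7A, had 38.2, 37.1 and 31.3 FPKM in shARID1A cells, against 29.8, 29.0 and 28.4 FPKM in shCONTROL cells. Its groups did not overlap, but the log2 difference was 0.28 with a 95% interval of 0.05 to 0.51 and an adjusted p of 0.0945 by limma with Benjamini-Hochberg adjustment. Without shARID1A replicate 3 the adjusted p was 0.0151, and on recovered reads with limma's voom it was 0.0457. WNT11, a ligand of the beta-catenin-independent branch, averaged 12.3 ± 2.07 FPKM in shARID1A and 11.1 ± 0.539 FPKM in shCONTROL (SD, n = 3 each). WNT5B, which acts in the same branch, averaged 4.29 ± 1.08 FPKM in shARID1A and 5.72 ± 0.752 FPKM in shCONTROL, with an interval of the log2 difference from -0.74 to 0.02. The groups overlapped for WNT3, WNT5A, WNT5B, WNT10A and WNT11, with adjusted p values between 0.170 for WNT5B and 0.875 for WNT10A.

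Because FPKM values are per length, the ligands can be set against each other, as far as the deposited gene lengths hold. The 9 ligands together summed to 107, 109 and 89.6 FPKM in shARID1A samples, against 66.5, 67.3 and 73.2 FPKM in shCONTROL samples. WNT7A made up 41.3%, 39.6% and 39.6% of this sum in shARID1A samples and 19.9%, 20.8% and 27.8% in shCONTROL samples. By FPKM, the order of the 2 most abundant ligands thus differed between the groups. This order depends on the deposited lengths, 1714 bases for WNT7A and 3912 bases for WNT7B. By reads, WNT7A was below WNT7B in every sample. It had 2751, 2408 and 2109 reads in shARID1A samples, where WNT7B had 5449, 4729 and 4243. In GENCODE 29 the exonic bases number 4579 for WNT7A and 5051 for WNT7B, so the order could change with the annotation. WNT7A stood at 1.15, 1.16 and 1.13 times the level of WNT7B in the shARID1A samples, and at 0.445, 0.482 and 0.718 times in the shCONTROL samples. Both together supplied 75.1% ± 1.85 of the ligand sum in shARID1A cells and 65.1% ± 1.33 in shCONTROL cells (SD, n = 3 each). These sums and shares rest on WNT7A, already tested above, and carry no test of their own.

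**Figure D3:**
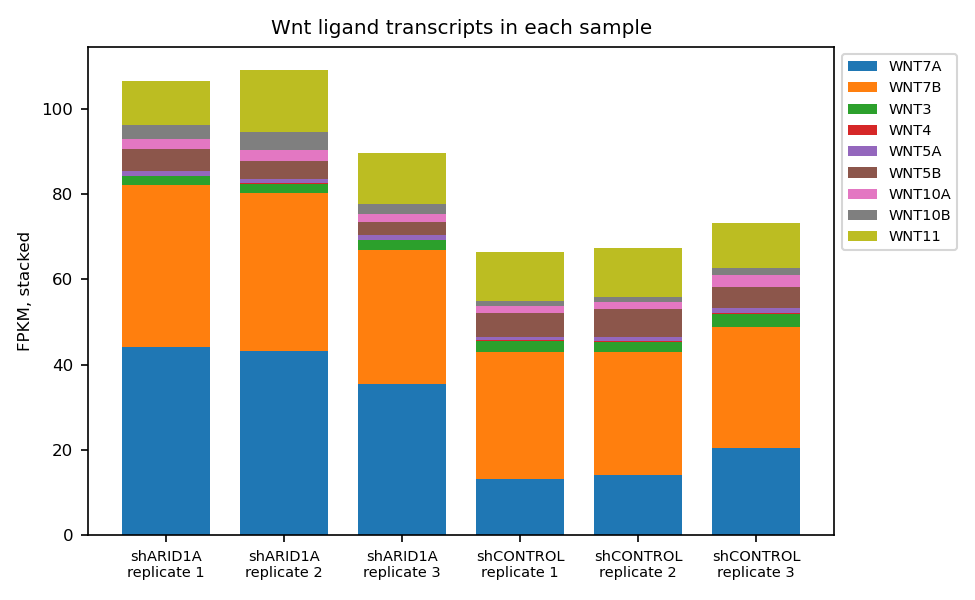
Stacked FPKM of the 9 Wnt ligands in each of the 6 samples, shARID1A samples at left and shCONTROL samples at right. WNT7A, at the base of each bar, is larger than WNT7B in every shARID1A sample and smaller in every shCONTROL sample, and WNT4 is barely visible.

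Among the receptors, FZD5, a frizzled that can bind several Wnt ligands, had 4.35, 4.20 and 4.67 FPKM in shARID1A cells, against 2.98, 2.88 and 2.91 FPKM in shCONTROL cells. The groups were far apart relative to their spread, with means of 4.40 ± 0.243 FPKM in shARID1A and 2.92 ± 0.0558 FPKM in shCONTROL (SD, n = 3 each). The log2 fold change was 0.46 ± 0.10 (SE; limma, Benjamini-Hochberg adjusted p = 0.0205). It no longer passed without shARID1A replicate 1 (adjusted p = 0.0763), without shCONTROL replicate 1 (0.0803) or without shCONTROL replicate 2 (0.104).

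FZD6, by far the most abundant frizzled and known from hair patterning and planar polarity, had 48.8, 44.4 and 54.4 FPKM in shARID1A cells, against 57.2, 56.4 and 56.5 FPKM in shCONTROL cells. The groups did not overlap, yet the difference did not pass, with a log2 difference of -0.21 and an interval of -0.42 to 0.01. FZD4, known as a receptor in retinal vessels, had 1.59, 1.46 and 1.69 FPKM in shARID1A and 1.01, 1.10 and 1.23 FPKM in shCONTROL cells, with a log2 difference of 0.29 and an adjusted p of 0.116 (limma, Benjamini-Hochberg). It passed on recovered reads (0.0276) and with quantile normalization (0.0278). In GENCODE 29, 18.9% of its exonic bases are shared with another gene, PRSS23, on the opposite strand, and since the strandedness of the libraries is not known here, reads of FZD4 and PRSS23 cannot be told apart there. FZD1, FZD2, FZD3, FZD7 and FZD8 had overlapping groups and log2 differences between -0.27 and 0.20. FZD3 had 1.58, 1.44 and 2.33 FPKM in shARID1A and 2.34, 2.25 and 2.38 FPKM in shCONTROL cells, and without shARID1A replicate 3 its adjusted p was 0.0330, as FZD6 had 0.0378.

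The co-receptors LRP5 and LRP6 did not pass. LRP5 averaged 27.7 ± 3.20 FPKM in shARID1A and 24.2 ± 4.60 FPKM in shCONTROL cells, and LRP6 averaged 8.68 ± 1.30 FPKM in shARID1A and 9.23 ± 0.566 FPKM in shCONTROL cells (SD, n = 3 each). Over the 8 frizzleds, the summed level was 77.4 ± 5.39 FPKM in shARID1A and 83.1 ± 1.94 FPKM in shCONTROL cells. Of that sum FZD6 held 63.4% ± 2.21 in shARID1A and 68.2% ± 1.91 in shCONTROL cells, and FZD5 held 5.69% ± 0.0810 in shARID1A and 3.52% ± 0.123 in shCONTROL cells. FZD5, the 1 called gene of the 10 frizzleds and LRP co-receptors (10.0%, against 16.8% of all genes), was thus a minor frizzled by transcript level.

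DKK1, a secreted antagonist that binds LRP5 and LRP6, had 62.1, 57.9 and 98.7 FPKM in shARID1A cells, against 25.1, 26.7 and 51.0 FPKM in shCONTROL cells. The groups did not overlap, and replicate 3 was the highest sample in each group. The ratio between equal replicate numbers was 2.47, 2.16 and 1.94. The means were 72.9 ± 22.5 FPKM in shARID1A and 34.3 ± 14.5 FPKM in shCONTROL (SD, n = 3 each). The log2 fold change was 1.10 ± 0.28 (SE), with an interval of 0.45 to 1.75 (limma, Benjamini-Hochberg adjusted p = 0.0341). The call was lost without the filter on low levels (0.0895), without shARID1A replicate 1 (0.0726), without shCONTROL replicate 1 (0.113) and without shCONTROL replicate 2 (0.122). With the replicate number as a block, a pairing taken from the data, DKK1 passed with an SE of 0.096 (limma, adjusted p = 0.000827). In GENCODE 29, 9.61% of the exonic bases of DKK1 are shared with PRKG1-AS1, and reads there cannot be assigned to either gene with certainty. The window around its start is chr10:52314031-52314330 on the plus strand of GRCh38.p14 in RefSeq. It is shown because DKK1 had the next largest log2 fold change after WNT7A among the 31 tested genes, and capitals mark the TCF/LEF heptamer.
DKK1: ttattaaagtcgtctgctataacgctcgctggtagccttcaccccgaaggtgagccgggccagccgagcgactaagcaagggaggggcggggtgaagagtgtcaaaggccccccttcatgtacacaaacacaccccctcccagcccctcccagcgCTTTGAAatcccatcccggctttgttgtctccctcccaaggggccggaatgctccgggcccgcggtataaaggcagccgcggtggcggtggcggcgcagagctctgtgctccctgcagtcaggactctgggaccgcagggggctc
The heptamer CTTTGAA begins 95 bases before the start. It occurs on either strand in 2.67% of the 13417 windows of tested genes and in 4.43% of all 35116 windows. Among 31 windows of 24 Wnt pathway genes this was the only one with CTTTGAA, none held CTTTGAT, and 1, of RNF43, held TGANTCA.

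DKK3, a divergent member of the dickkopf family, averaged 1.78 ± 0.181 FPKM in shARID1A and 1.94 ± 0.377 FPKM in shCONTROL cells and did not pass (SD, n = 3 each). ZNRF3, a ubiquitin ligase that removes frizzleds from the cell surface, averaged 6.12 ± 0.437 FPKM in shARID1A and 5.47 ± 0.507 FPKM in shCONTROL cells, an interval of -0.12 to 0.39 on the log2 scale. RNF43, its close relative, had 18, 6 and 25 reads in shARID1A samples, against 18, 11 and 23 reads in shCONTROL samples. It lay under the filter, and on recovered reads with a minimum of 10 reads its adjusted p was 0.914 (limma's voom). In GENCODE 29, 73.9% of its exonic bases are shared with other genes.

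DVL2, one of the dishevelled adaptors that carry the signal inward from frizzleds, had 9.69, 11.9 and 11.3 FPKM in shARID1A cells, against 15.4, 15.2 and 15.5 FPKM in shCONTROL cells. All shARID1A samples were lower than all shCONTROL samples, with means of 10.9 ± 1.13 FPKM in shARID1A and 15.4 ± 0.150 FPKM in shCONTROL (SD, n = 3 each). The log2 fold change was -0.46 ± 0.10 (SE; limma, Benjamini-Hochberg adjusted p = 0.0214). The call was lost without shARID1A replicate 1 (0.0914) and without shCONTROL replicate 1 (0.0881), 2 (0.0991) or 3 (0.0578), and on recovered reads with a minimum of 10 reads (0.0584). DVL1 and DVL3, the more abundant dishevelleds, averaged 33.2 ± 3.14 and 47.6 ± 3.70 FPKM in shARID1A cells, against 31.9 ± 1.06 and 49.8 ± 2.58 FPKM in shCONTROL cells, and neither passed. DVL2 supplied 12.0% ± 1.26 of the dishevelled transcript level in shARID1A cells and 15.8% ± 0.686 in shCONTROL cells.

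The core of the destruction complex did not pass the test. GSK3B, the kinase that phosphorylates beta-catenin, had 14.4, 13.4 and 15.6 FPKM in shARID1A cells, against 17.1, 17.3 and 17.8 FPKM in shCONTROL cells. Its groups did not overlap, with a log2 difference of -0.25, an interval of -0.47 to -0.03 and an adjusted p of 0.104 by limma with Benjamini-Hochberg adjustment, which was 0.0354 without shARID1A replicate 3. APC averaged 8.07 ± 0.854 FPKM in shARID1A and 9.12 ± 0.453 FPKM in shCONTROL cells. The scaffold AXIN1 averaged 23.7 ± 2.37 FPKM in shARID1A and 22.8 ± 3.74 FPKM in shCONTROL cells (SD, n = 3 each).

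CTNNB1 had 163, 158 and 132 FPKM in shARID1A cells, against 179, 180 and 188 FPKM in shCONTROL cells. Every shARID1A sample was lower than every shCONTROL sample, and shARID1A replicate 3 was the lowest. The log2 difference was -0.28 with an interval of -0.50 to -0.05, and the adjusted p was 0.0888 (limma, Benjamini-Hochberg). It was 0.0391 with quantile normalization and 0.257 on recovered reads. RNA levels say nothing of the amount or place of beta-catenin protein.

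The TCF/LEF factors, the DNA-binding partners of beta-catenin, had means that were higher in shARID1A cells for each of the 3 tested genes, but none passed. LEF1 had 2.27, 2.51 and 3.06 FPKM in shARID1A and 1.92, 1.74 and 2.24 FPKM in shCONTROL cells, groups that just missed overlap, with an adjusted p of 0.167 by limma with Benjamini-Hochberg adjustment and 0.0399 with quantile normalization. TCF7 averaged 4.03 ± 0.581 FPKM in shARID1A and 3.20 ± 0.351 FPKM in shCONTROL cells, and TCF7L2 averaged 5.52 ± 0.939 FPKM in shARID1A and 4.58 ± 0.185 FPKM in shCONTROL cells (SD, n = 3 each). TCF7L1, mostly a repressor, had 83, 112 and 85 reads in shARID1A samples and 61, 79 and 60 reads in shCONTROL samples. It lay under the filter, and on recovered reads with a minimum of 10 reads its adjusted p was 0.231 (limma's voom). The 4 factors together summed to 13.1 ± 0.806 FPKM in shARID1A and 10.4 ± 0.466 FPKM in shCONTROL cells.

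**Figure D4:**
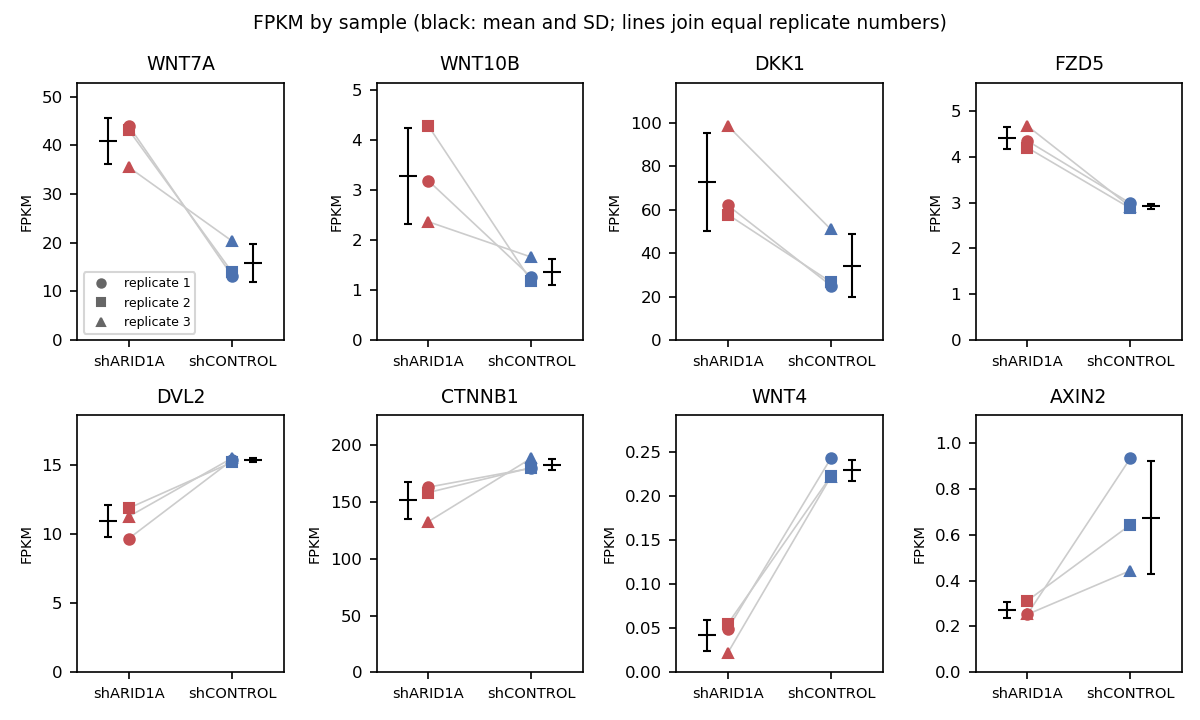
FPKM by sample of the 5 called genes, of CTNNB1 and of the low-level genes WNT4 and AXIN2, shARID1A at left and shCONTROL at right in each panel, with mean and SD in black and grey lines that join equal replicate numbers. In all 8 panels the groups do not overlap. Among all genes tested 38.8% did not overlap, but 5 panels show genes chosen as called, and WNT4 and AXIN2 were not tested. The 8 panels therefore cannot be set against that share. DKK1 replicate 3 is the highest sample of its group in each group.

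Of the low-level genes, WNT4, a ligand known from kidney and reproductive tract development, had 7, 7 and 3 reads in shARID1A samples, against 30, 30 and 30 reads in shCONTROL samples. Its level was lower by 81.6%, at 0.0421 ± 0.0175 FPKM in shARID1A and 0.229 ± 0.0119 FPKM in shCONTROL (SD, n = 3 each). Without the filter on low levels it passed (limma, Benjamini-Hochberg adjusted p = 0.00912), a fit in which 7.77% of 18973 genes were called, 5.17% as lower; there 3 of the 36 genes rose and 2 fell. On recovered reads with a minimum of 10 reads over all samples the adjusted p was 0.0203, beside 5.96% of 16792 genes called lower.

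AXIN2, an inhibitor that is itself a widely used readout of beta-catenin signalling, had 39, 43 and 37 reads in shARID1A samples, against 125, 94 and 65 reads in shCONTROL samples. The groups did not overlap, and the level was lower by 59.5%, at 0.272 ± 0.0343 FPKM in shARID1A and 0.673 ± 0.246 FPKM in shCONTROL (SD, n = 3 each). It did not pass without the filter (limma, Benjamini-Hochberg adjusted p = 0.0814) or on recovered reads (0.0565), and passed on recovered reads with the replicate number as a block (0.0186). In GENCODE 29, 25.2% of its exonic bases are shared with another gene on the same strand. NKD1, a dishevelled-binding inhibitor that is also a feedback target, had 24, 38 and 41 reads in shARID1A samples and 16, 22 and 12 reads in shCONTROL samples, with an adjusted p of 0.145 on recovered reads (limma's voom, Benjamini-Hochberg).

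Over all 36 genes, 14 had groups that did not overlap, 8 higher and 6 lower in shARID1A. Among the 31 tested genes this held for 11 (35.5%), against 38.8% of all genes tested. Of the 31, 7 were higher and 4 lower, against 13.4% of all genes tested higher and 25.4% lower.

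Other genes of the pathway were listed by role, with earlier results of these data known. Of 61 tested, 12 passed the threshold (19.7%, against 16.8% of all genes), 5 that rose and 7 that fell. The median log2 fold change of the 61 was -0.050. At the cell surface, ROR1, a receptor for WNT5A, rose, with 3.40 ± 0.117 FPKM in shARID1A and 1.49 ± 0.226 FPKM in shCONTROL cells and a log2 fold change of 0.82 (limma, Benjamini-Hochberg adjusted p = 0.00362). The ligand gene WNT9A fell, with 3.64 ± 0.990 FPKM in shARID1A and 6.66 ± 0.665 FPKM in shCONTROL cells (adjusted p = 0.0229 by limma). CELSR3, an atypical cadherin of the planar polarity group, fell, with 1.74 ± 0.264 FPKM in shARID1A and 3.38 ± 0.409 FPKM in shCONTROL cells (adjusted p = 0.0114 by limma), and it was the 1 called gene of 15 tested (6.67%) in the planar polarity and calcium branch.

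Of 11 partners of the destruction complex, 3 passed (27.3%, against 16.8% of all genes): AMER1, which binds APC, rose and BTRC and TNKS fell. BTRC, the F-box protein that recognises phosphorylated beta-catenin, averaged 2.93 ± 0.201 FPKM in shARID1A and 4.52 ± 0.252 FPKM in shCONTROL cells, and TNKS, a tankyrase that destabilises axin, averaged 9.33 ± 1.12 FPKM in shARID1A and 12.7 ± 0.440 FPKM in shCONTROL cells (SD, n = 3 each). AMER1 averaged 3.91 ± 0.354 FPKM in shARID1A and 2.55 ± 0.0699 FPKM in shCONTROL cells, and it is listed again in the deposited table with other values, which were not used. The calls of AMER1 and TNKS were lost when any one sample other than shARID1A replicate 3 was left out, with limma adjusted p values up to 0.115 for AMER1 and 0.161 for TNKS. Of 14 nuclear cofactors 1 passed (7.14%), TLE3, a Groucho-type co-repressor that binds TCF/LEF factors. It fell, with 14.7 ± 0.438 FPKM in shARID1A and 24.0 ± 3.40 FPKM in shCONTROL cells (limma, Benjamini-Hochberg adjusted p = 0.00903), and its adjusted p was 0.0562 without shCONTROL replicate 2.

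Reported target genes of beta-catenin went in both directions, with 3 of 11 called higher (27.3%, against 5.85% of all genes) and 2 of 11 called lower (18.2%, against 10.9% of all genes). BMP4, a secreted growth factor, rose, with 9.27 ± 0.648 FPKM in shARID1A and 5.25 ± 0.712 FPKM in shCONTROL cells and a log2 fold change of 0.72 (limma, Benjamini-Hochberg adjusted p = 0.00648). SOX4, a transcription factor of progenitor cells, fell, with 38.4 ± 3.52 FPKM in shARID1A and 68.5 ± 3.11 FPKM in shCONTROL cells and a log2 fold change of -0.82 (limma, Benjamini-Hochberg adjusted p = 0.00194). The Notch ligand gene JAG1 averaged 80.3 ± 5.42 FPKM in shARID1A and 62.2 ± 1.63 FPKM in shCONTROL cells, and the AP-1 subunit gene FOSL1 averaged 69.3 ± 14.9 FPKM in shARID1A and 43.0 ± 3.99 FPKM in shCONTROL cells, both called higher. ID2, an inhibitor of basic helix-loop-helix factors, was called lower, with 25.2 ± 4.61 FPKM in shARID1A and 42.0 ± 9.22 FPKM in shCONTROL cells (SD, n = 3 each). ROR1, BMP4 and SOX4 passed in all 16 alternative settings. The other 9 called genes each lost the call in at least 1 fit that left out a sample. For WNT9A these were shCONTROL replicates 1 and 2 (adjusted p up to 0.0968 by limma), and for BTRC and CELSR3 shARID1A replicate 1 and the same 2 shCONTROL samples (up to 0.105 for BTRC and 0.0661 for CELSR3). JAG1 lost it without shARID1A replicate 1 or any shCONTROL sample (up to 0.126), ID2 without shARID1A replicate 1 or 2 or shCONTROL replicate 2 or 3 (up to 0.105), and FOSL1 when any one sample other than shARID1A replicate 3 was left out (up to 0.0982). Calls were also lost without the filter on low levels for WNT9A, TNKS, AMER1, ID2 and FOSL1, with limma adjusted p values between 0.0560 for AMER1 and 0.0704 for ID2. With quantile normalization they were lost for WNT9A (0.0630), TNKS (0.0648) and BTRC (0.0859), and TNKS also missed on recovered reads with a minimum of 10 reads (0.0544). The 3 genes of ligand secretion, 2 other secreted antagonists and 1 tested gene of the R-spondin arm did not pass.

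**Figure D5:**
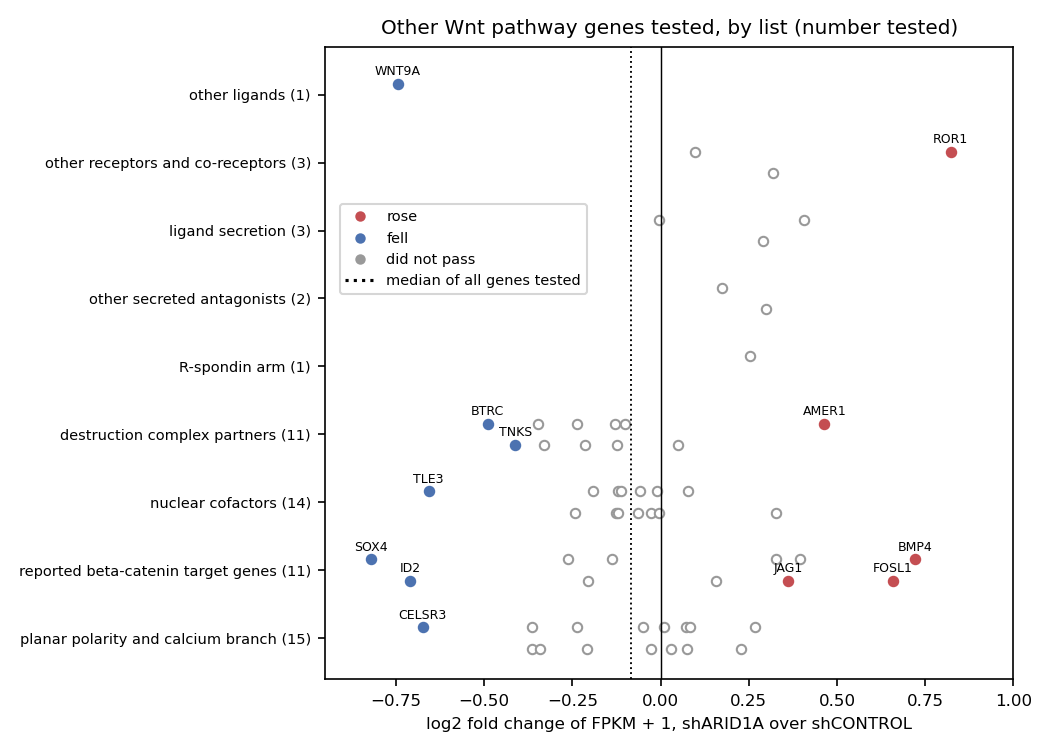
Log2 fold change of FPKM + 1, shARID1A over shCONTROL, of the 61 other Wnt pathway genes tested, by list, with the number tested beside each list name. Red points rose, blue points fell, open points did not pass, and every list with 2 or more tested genes holds points that did not pass.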

How the data were processed

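RNA was extracted with TRIzol and libraries followed Illumina procedures, per the labels' protocols. HISAT2 2.0.5 and featureCounts 1.5.0-p1 are named in the submitters' processing notes. The sources used here give neither genome build nor annotation nor strandedness. A single table, deposited by the authors, gives FPKM per sample and gene lengths. Of 26048 rows, 6234 are empty and 19814 name a gene. The last 393 rows have another denominator and were left out. Of these, 363 repeat a symbol listed before. FPKM steps gave whole reads for 100% of values (tolerance 0.01 reads). Of 19421 gene IDs, 19344 matched RefSeq names of GRCh38.p14.

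The members and lists were chosen with earlier results of these data known. All members are named, and from each other list the called genes, at most the 4 with the smallest adjusted p; ID2, the remaining called gene of its list, was added after its values were seen. Tests used limma 3.58.1 in R 4.3.3 (lmFit and eBayes with trend, two-sided) on log2(FPKM + 1) for the 11599 genes whose mean reached 1 FPKM. P-values were adjusted by Benjamini-Hochberg across these genes, with a threshold of 0.05. The fit was checked on simulated counts, drawn independently per sample with the same setting of spread beyond counting noise for every gene. That simulation held no deviations shared by replicate number and no outlying sample, so it does not cover those features of these data. Alternatives were pseudocounts of 0.1 and 5 FPKM, no filter, upper quartile scaling, quantile normalization, a replicate block, voom on recovered reads and leaving out each sample. The voom fits with a minimum of 10 reads were added after the data were seen. Samples with equal replicate numbers deviated together from their group means (correlations across genes of 0.321, 0.187 and 0.315), and different numbers gave -0.302 to 0.0859, so the block pairs the samples by a check that comes from the data, not the labels. Chi-square per degree of freedom between replicates was 5.56 to 90.5, so no 2 samples agreed within counting noise. On principal components the groups separated on the component with 55.4% of the variance. On the one with 25.0%, shARID1A replicate 3 (0.77) and shARID1A replicate 2 (-0.52) lay at opposite ends. The other samples lay there between -0.18 and 0.24. RefSeq promoter windows were searched for motifs on both strands, and shared exonic bases were taken from GENCODE 29, which may not be the annotation the authors used. Intervals and whole reads carry no molecular identifiers, so reads are not independent molecules.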

Additional observations from a re-analysis of the deposited data

How the results depend on the processing

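Over 31 tested genes and up to 16 settings, 433 of 493 values kept direction and side of the threshold, 15 lost the call, 18 gained it and 27 turned sign, none of them of a called gene. The replicate block left the members at 4 that rose and 1 that fell (16.1%, against 23.6% of all genes) and changed no call among them; among other pathway genes it gave 7 that rose and 8 that fell, adding TLE1, TNFRSF19 and NFATC1. Members that rose numbered 7 with block and quantile normalization, 7 with voom at a minimum of 10 reads and block, and 1 to 5 when a sample was left out. With block and quantile normalization 29.0% of members were called in either direction, against 21.6% of all genes. Without shARID1A replicate 1, shCONTROL replicate 1 or shCONTROL replicate 2 only WNT7A was called among members. Those fits called 6.78%, 6.43% and 5.05% of all genes, in that order. Without shARID1A replicate 3 there were 5 higher and 4 lower among 30 tested members. That fit called 29.2% of all genes in either direction, so calls rose among all genes as well. Members that fell numbered 2 without the filter (5.56%, against 5.17% of all genes). They also numbered 2 with quantile normalization, with and without the block, 3 with voom at 10 reads and block, and 0 to 4 when a sample was left out. Other pathway genes that rose numbered 3 without the filter, 8 with quantile normalization, 10 with block and quantile normalization, 9 with voom at 10 reads, 12 with its block, and 2 to 10 when a sample was left out. Those that fell numbered 4 without the filter and 1 to 10 when a sample was left out. Over all genes, higher calls numbered 1316 with block and quantile normalization, 1048 with voom, 1138 with voom at 10 reads, 1780 with its block and 231 to 1105 when a sample was left out. Lower calls numbered 831 with quantile normalization and 353 to 2283 when a sample was left out. The cause of these shifts was not tested. The log2 differences that turned sign were of 10 genes that did not pass. With quantile normalization, with and without the block, they were 0.0042 for WNT3, 0.060 for FZD7, 0.0048 for FZD8, 0.022 for LRP6 and 0.091 for DKK3. With voom they were 0.021 for FZD7 and 0.023 for DVL3, at 10 reads 0.039 for FZD7, 0.010 for LRP6 and 0.040 for DVL3, and with its block 0.038 for FZD7, 0.011 for LRP6 and 0.042 for DVL3. When a sample was left out, the values ranged from -0.019 to 0.079 for WNT5A, -0.074 to 0.24 for WNT10A, -0.13 to 0.034 for FZD7, -0.17 to 0.018 for DKK3, -0.073 to 0.15 for AXIN1 and -0.0089 to 0.12 for DVL1. The filter was set on FPKM, not on reads, and genes under it had levels too low for a firm statement. The smallest count of a tested member in a sample was 94 reads. Under the filter, TCF7L1 had 60 to 112 reads and AXIN2 37 to 125 reads per sample.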

Other observations

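LGR5, a receptor for R-spondins and a stem cell marker in several epithelia, lay under the filter on low levels and was picked out after its values were seen. It had 48, 18 and 58 reads in shARID1A samples, against 8, 6 and 4 reads in shCONTROL samples. The groups did not overlap, and the level was 0.241 ± 0.117 FPKM in shARID1A and 0.0369 ± 0.0141 FPKM in shCONTROL cells (SD, n = 3 each). On recovered reads with a minimum of 10 reads the log2 fold change was 2.68 ± 0.68 (SE; limma's voom, Benjamini-Hochberg adjusted p = 0.0266), and 12.7% of 16792 genes were called in that fit. Without the filter on low levels, on log2(FPKM + 1), it did not pass (limma adjusted p = 0.0749).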
